A study of Mus musculus with 18 samples.

Results

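Voltage-gated sodium and calcium channel genes were examined in RNA of the mouse substantia nigra, a midbrain nucleus with many dopaminergic neurons. Members were all genes of the deposited table with a symbol of the form Scn followed by a number and a or b, or Cacna, Cacnb or Cacng followed by a number. This gave 40 genes of 55269, of which 20 encode pore-forming subunits (10 sodium channel alpha subunits and 10 calcium channel Cacna1 subunits) and 20 encode auxiliary subunits (4 sodium channel beta subunits and 16 alpha2delta, beta and gamma subunits of calcium channels). The rule used symbols and no measured value, but it was chosen with earlier results of these data known.

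The series holds 18 poly-A RNA libraries in 3 groups of 6. Intact mice carry the label WT and no treatment is named for them. The AAV-GFP group is labelled as overexpressing green fluorescent protein (GFP) from an adeno-associated virus (AAV), and the AAV-SIRT3 group as overexpressing SIRT3, a mitochondrial deacetylase. Per the labels' protocols, RNA was taken from mice 3 months old, a month after the AAV. The promoter of the virus, the injection site, the cells it reached, the sex and strain of the mice and any treatment shared by the groups are not given in the sources used here. Setting AAV-SIRT3 beside AAV-GFP compares groups that by their labels both received a virus, and each comparison with the intact group adds the virus and its delivery. The labels do not say that each library came from its own mouse, so a p-value here measures the spread between the libraries of a group.

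Sodium and calcium channels of this family open when the membrane is depolarised. A pore-forming subunit is a large protein of homologous repeats that carries the voltage sensors and the pore, and it sets the type of current: sodium channels drive the action potential, P/Q-, N- and R-type calcium channels serve transmitter release, L-type channels carry sustained calcium entry, and T-type channels support low-threshold bursts. The auxiliary subunits are smaller proteins that change trafficking, gating and anchoring of the pore, and several gamma subunits instead bind AMPA-type glutamate receptors. In dopaminergic neurons of the substantia nigra, L-type channels built on Cacna1d contribute to calcium entry during pacemaking.

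Each library held between 47182420 and 64728400 gene-assigned reads, recovered from the normalised values. Testing covered the 19442 genes that reached a normalised value of 10 in 6 or more libraries. Th, which encodes the enzyme that starts dopamine synthesis, lay between 4623 and 6637 normalised reads in intact libraries, so the tissue label had its defining marker, and the dopamine transporter gene Slc6a3 lay between 9283 and 12867. Sirt3 itself ran from 1684 to 1936 in AAV-GFP and from 1801 to 2041 in AAV-SIRT3 libraries, and the groups overlapped. The log2 fold change was 0.13 (SE 0.0422, limma, adjusted p = 0.183). Against intact libraries, at 1733 to 1920, it was 0.09 (limma, adjusted p = 0.148). The Sirt3 reads therefore do not show the labelled overexpression, and AAV-SIRT3 is used throughout as the name of a labelled group. Whether reads of the delivered SIRT3 sequence were counted under the mouse gene Sirt3 was not tested. Markers of the thalamus, a neighbouring region, varied widely within the intact group: 7 marker genes summed to between 20336 and 55948 normalised reads there, against 45342 to 54882 in AAV-GFP and 43066 to 60585 in AAV-SIRT3.

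Of the 40 members, 36 passed the filter, 18 pore-forming and 18 auxiliary. The 4 others were Scn4a and Cacng1, subunits known from skeletal muscle, Scn10a, a sodium channel of peripheral sensory neurons, and Cacng6. Scn4a reached at most 9.53 normalised reads in any library, Scn10a 9.77, Cacng6 9.99 and Cacng1 23.8. A value of 0 in a library allows up to 3 reads, a limit that covers counting error only, since no molecular identifiers tell copied reads from separate molecules. The muscle markers Acta1 and Ckm were also low in intact libraries, at 56.7 to 142 and 3.13 to 14.8 normalised reads.

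Levels of different genes were compared per kilobase of the longest coding transcript in GENCODE M21. In intact libraries Cacng7, a gamma subunit that binds AMPA receptors, lay at 4616 ± 289 normalised reads per kilobase (SD, n = 6), and Scn2b, a beta subunit linked to the pore by a disulphide bond, at 3175 ± 182. These levels were separated by more than their SDs.

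Scn1a, the sodium channel of many inhibitory neurons, had the highest level among pore-forming genes per kilobase of longest transcript, at 2340 ± 332 normalised reads per kilobase. Scn4b, a beta subunit tied to resurgent sodium current, lay at 2120 ± 475, within the SD of Scn1a. Scn2a (1477 ± 82.1), Scn3b (1467 ± 138), Scn8a (1344 ± 122), Cacna2d2 (1326 ± 79.8) and Cacna2d1 (1262 ± 109) followed. Genes next to each other in this order differed by less than the larger of their SDs, but Scn2a and Cacna2d1 differed by more than either SD.

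Most calcium channel pores were lower on the same scale. The T-type gene Cacna1g led them at 962 ± 167 normalised reads per kilobase, then P/Q-type Cacna1a at 808 ± 57.2, N-type Cacna1b at 681 ± 37.6 and R-type Cacna1e at 646 ± 60.2. The L-type genes Cacna1c and Cacna1d lay at 379 ± 56.7 and 290 ± 21.4, and the other T-type genes Cacna1i and Cacna1h at 385 ± 14.1 and 292 ± 34.2. Scn3a, a sodium channel of the developing brain, lay at 418 ± 33.0, Scn9a, best known from pain-sensing neurons, at 192 ± 22.3, and Scn7a, a sodium sensor of glia that does not act as a classical voltage-gated channel, at 75.5 ± 18.3. Cacna1s (skeletal muscle), Cacna1f (retina) and Scn11a (sensory neurons) were each below 10 normalised reads per kilobase. The order of the pores depends on the transcript length used. Per kilobase of the median annotated transcript, Scn8a at 7282 and Cacna1i at 6414 normalised reads lay above Scn1a at 2791, and Cacna1g lay at 1002. For Cacna1i that median was 586.5 bases, against 9781 for the longest transcript.

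**Figure D1:**
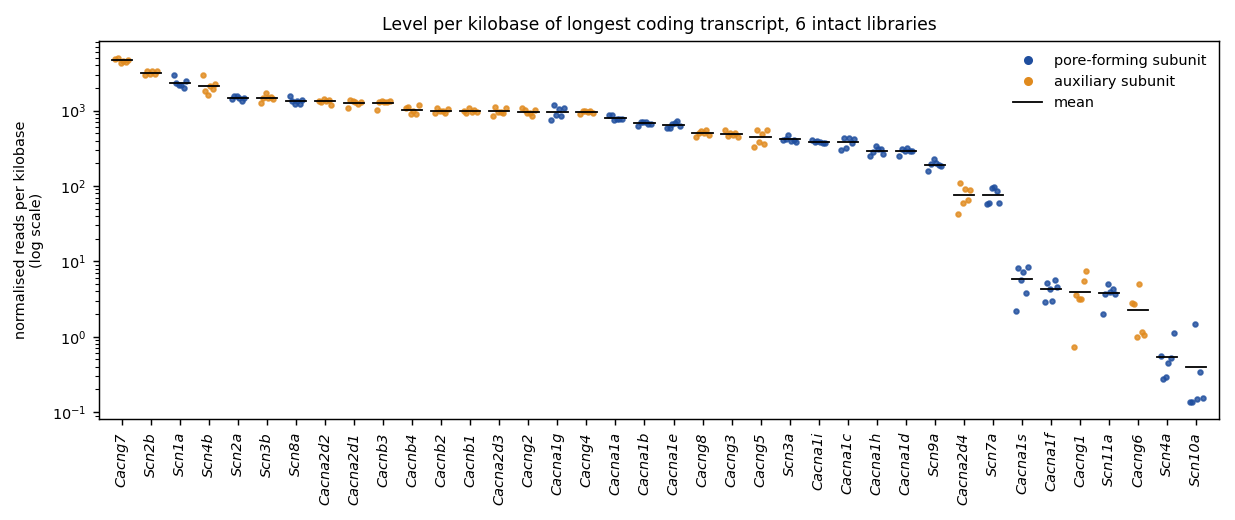
Level of 38 of the 40 members in the 6 intact libraries, in normalised reads per kilobase of the longest coding transcript on a log axis. Points are libraries, blue for pore-forming and orange for auxiliary subunits, and bars are means. Cacng7 stands highest of those plotted at 4616, and a gap separates Scn7a at 75.5 from the 7 lowest members.

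The spread within groups also differed between members. Over the 36 tested members the SD was 9.19% of the mean at the median in intact libraries, with a range from 3.68% for Cacna1i to 42.4% for Cacna1s. In the intact group 5 of the more variable members, chosen after their values were seen, were low in the same 3 libraries, replicates 1, 3 and 5. Cacna1g, a gene strongly used by thalamic relay neurons, was at 6235, 7344 and 7084 normalised reads in those 3 and at 8714 to 9951 in the other 3. Cacng5 was at 1224, 1413 and 1325 against 1802 to 2051. Cacna1c, Cacna1s and Cacna2d4 showed the same division into 3 low and 3 high libraries. Other members with a wide intact spread did not. Scn4b, with an SD of 22.4% of the mean, was highest in replicate 1 at 14826. Scn7a, at 24.3%, was low in replicates 1, 2 and 6, at 428, 432 and 440. Cacna1f and Scn11a did not divide this way either. The summed thalamus markers were 20336, 23077 and 25229 in replicates 1, 3 and 5 and 40168 to 55948 in the other 3. The part of thalamic tissue in the values of Cacna1g, Cacng5, Cacna1c, Cacna1s and Cacna2d4 was not tested within the intact group.

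AAV-SIRT3 against AAV-GFP gave no member past the threshold. Of 36 tested members 0 passed an adjusted p of 0.05 (limma), where 0.113% of all 19442 genes did, and 4 had an unadjusted p under 0.05, where 15.2% of all genes did. By direction, 0.036% of all genes passed as higher and 0.0772% as lower. DESeq2 and edgeR on the recovered reads also called 0 members. No member separated the 2 groups completely, where 0.381% of all genes did as lower and 0.37% as higher. The median log2 fold change was -0.05 for pore-forming genes, with 14 of 18 below 0, and 0.05 for auxiliary genes, with 6 of 18 below 0, against -0.004 over all genes tested, of which 51.4% were below 0.

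Cacna1d had the smallest p of the members in that comparison. Its lowest, median and highest values were 1823, 2323 and 2383 normalised reads in AAV-GFP and 1755, 1926 and 2140 in AAV-SIRT3. The AAV-SIRT3 library was the lower in 31 of 36 pairs, although the groups overlapped, and the log2 fold change of -0.19 (SE 0.0665) did not pass (limma, adjusted p = 0.204). One library decided this: without AAV-GFP replicate 2, in which Cacna1d was at its lowest AAV-GFP value, the difference was -0.24 and passed (limma, adjusted p = 0.0247), and over all genes 861 passed in place of 22.

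The other 3 members with an unadjusted p under 0.05 were Cacna1a at -0.14 (SE 0.0599, limma adjusted p = 0.288), the beta subunit gene Scn3b at 0.15 (SE 0.0605, limma adjusted p = 0.251) and Cacng3, which encodes an AMPA receptor partner, at 0.17 (SE 0.0726, limma adjusted p = 0.278). For the main sodium channel pores the 95% interval of the log2 difference ran from -0.22 to 0.13 for Scn1a, from -0.18 to 0.09 for Scn2a and from -0.13 to 0.09 for Scn8a. For Scn4b it ran from -0.13 to 0.25. For Cacna1c it ran from -0.30 to 0.06 and for Cacna1g from -0.20 to 0.15. Differences of these sizes were not separable from 0 with these libraries. The comparison with the widest interval was Scn11a at -0.65, from -1.38 to 0.07, a gene of 3.81 to 30.1 normalised reads in the 12 libraries compared.

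AAV-GFP against intact gave 1 member past the threshold, Cacna1b, which was lower. Over all genes 1.84% passed, 1.02% as lower and 0.823% as higher. No member separated these groups completely, where 0.988% of all genes did as lower and 0.874% as higher. Cacna1b encodes the N-type pore, which supplies calcium for transmitter release. Its lowest, median and highest values were 6062, 6669 and 6968 normalised reads in intact libraries and 5176, 5967 and 6179 in AAV-GFP. It fell by 0.19 on the log2 scale (SE 0.0481, limma adjusted p = 0.0426), was lower in 34 of 36 pairs of libraries, and the groups overlapped. The call was not stable: it was lost in 18 of 31 alternatives, 12 of them fits without 1 library, with an adjusted p from 0.0101 to 0.162.

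Pore-forming genes as a set lay mostly below 0 in that comparison. Their median log2 fold change was -0.16 with 15 of 18 below 0, among them all 8 tested sodium channel alpha genes, while auxiliary genes had a median of 0.01 with 7 of 18 below 0, and over all genes the median was 0.0007 with 49.8% below 0. Unadjusted p-values under 0.05 were found for 11 of 18 pore-forming and 6 of 18 auxiliary genes, against 19.1% of all genes. Cacna1e at -0.27 (limma adjusted p = 0.0608), Cacna1h at -0.26 (0.0774) and Cacna2d2 at -0.19 (0.0864) were nearest to the threshold without passing. AAV-GFP replicate 2 was the lowest AAV-GFP library for Cacna1b, Cacna1d and Cacna1e, and without it the pore-forming median was -0.10.

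**Figure D2:**
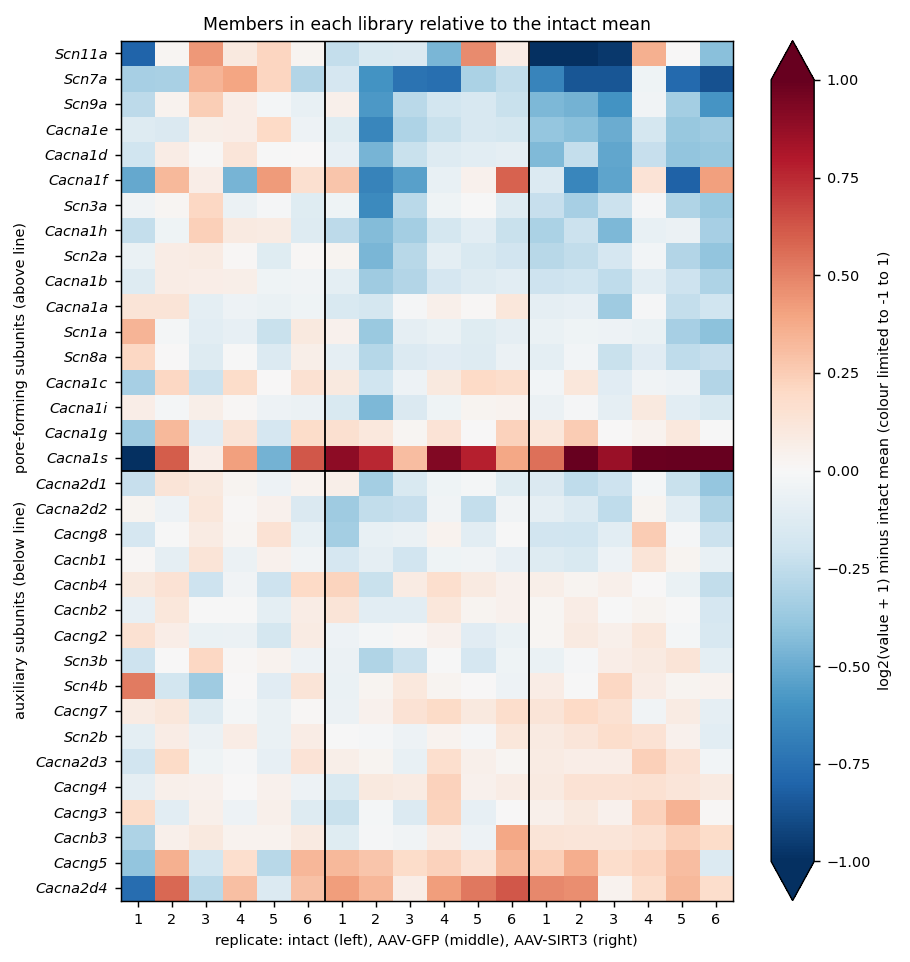
The plot shows 34 of the 36 tested members in each of the 18 libraries as log2(value + 1) minus the mean of the 6 intact libraries. Rows are members, pore-forming above the horizontal line and auxiliary below it, ordered by their difference between AAV-SIRT3 and intact, and colour is limited to -1 to 1. Upper pore-forming rows are mostly blue in AAV-SIRT3 columns and darkest in several rows of AAV-GFP replicate 2, while Cacna1s and the lower auxiliary rows are mostly red.

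AAV-SIRT3 against intact held most of the differences. Of 18 pore-forming genes 9 fell and 1 rose, and of 18 auxiliary genes 1 fell and 1 rose. Together 12 of 36 members passed, where 21.7% of all genes did, 10.3% as lower and 11.3% as higher. The median log2 fold change was -0.24 for pore-forming genes, with 16 of 18 below 0, and 0.07 for auxiliary genes, with 6 of 18 below 0, against -0.005 over all genes, of which 50.9% were below 0. The bulk tissue cannot tell fewer cells of a type from less RNA per cell. The comparison shares its intact libraries with the one above and its AAV-SIRT3 libraries with the first, so the 3 sets of values are not independent.

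Among calcium channel pores, Cacna1d and Cacna1e were separated completely. Cacna1d ran over 2187, 2531 and 2731 normalised reads (lowest, median, highest) in intact libraries and over 1755, 1926 and 2140 in AAV-SIRT3. Every AAV-SIRT3 library lay below every intact one. The fall was 0.37 on the log2 scale, a change of -22.5% (SE 0.0665, limma adjusted p = 0.00118). Cacna1d passed the threshold in all 31 alternatives run, with log2 fold changes from -0.45 to -0.22.

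Cacna1e, the R-type pore, ran over 8680, 9656 and 11008 normalised reads in intact libraries and over 6812, 7374 and 8507 in AAV-SIRT3. These groups did not overlap either, and Cacna1e also fell by 0.37 (SE 0.0758, limma adjusted p = 0.00235). Over all genes, 4.32% had every AAV-SIRT3 library below every intact one.

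Cacna1b ran over 5345, 5725 and 6152 normalised reads in AAV-SIRT3 against the intact values given above, and it was lower in 35 of 36 pairs. It fell by 0.21 (SE 0.0481, limma adjusted p = 0.00399). Cacna1h, a T-type pore, fell by 0.24 (SE 0.077, limma adjusted p = 0.0305), from a lowest, median and highest value of 2027, 2418 and 2813 normalised reads in intact to 1751, 1985 and 2294 in AAV-SIRT3, with overlap of the groups.

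Cacna1s was the pore-forming gene that rose. It is the L-type pore of skeletal muscle and was present here at few reads, 13.7, 40.1 and 52.2 (lowest, median, highest) in intact libraries, 41.9, 57.8 and 64.7 in AAV-GFP and 49.5, 67.7 and 94.6 in AAV-SIRT3. The lowest AAV-SIRT3 library lay within the intact range and the others lay above it. The log2 fold change against intact was 0.98 (SE 0.26, limma adjusted p = 0.0111), on a scale that understates low genes. None of the 4 tested genes of the skeletal muscle marker list passed in any comparison (limma).

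Cacna1a, the P/Q-type pore, missed the threshold at -0.16 (SE 0.0599, limma adjusted p = 0.0548). It ran over 5978, 6188 and 6985 normalised reads in intact, 5672, 6381 and 6896 in AAV-GFP and 4987, 5784 and 6352 in AAV-SIRT3 libraries, with overlap between all 3 groups. Cacna1c, the L-type pore most abundant in brain and heart, ran over 3918, 5214 and 5682 in intact, 4302, 5272 and 5679 in AAV-GFP and 4019, 4790 and 5334 in AAV-SIRT3. Its log2 fold change against intact was -0.07 (SE 0.0875, limma adjusted p = 0.62).

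Cacna1g ran over 6235, 8029 and 9951 in intact, 8000, 8664 and 9364 in AAV-GFP and 7950, 8353 and 9486 in AAV-SIRT3. The AAV groups lay inside the intact range, and the difference of AAV-SIRT3 from intact was 0.08 (SE 0.0825, limma adjusted p = 0.502). Cacna1i at -0.05 and the retinal gene Cacna1f at -0.26 did not pass either.

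All 8 tested sodium channel alpha genes lay below 0 against intact, and 5 of them fell. Scn7a ran over 428, 533 and 712 normalised reads in intact, 319, 396 and 481 in AAV-GFP and 295, 306 and 525 in AAV-SIRT3. Only AAV-SIRT3 replicate 4, at 525, lay inside the intact range. The fall was 0.68 (SE 0.159, limma adjusted p = 0.0051), a change of -37.5%.

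Scn9a ran over 1565, 1885 and 2229 in intact, 1262, 1627 and 1939 in AAV-GFP and 1235, 1362 and 1829 in AAV-SIRT3. It fell by 0.41 against intact (SE 0.0979, limma adjusted p = 0.00547), lower in 34 of 36 pairs. Again AAV-SIRT3 replicate 4 held the highest value of its group.

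Scn2a, the sodium channel of excitatory neurons and unmyelinated axons, ran over 12099, 13288 and 13983 in intact, 9626, 11710 and 13406 in AAV-GFP and 10042, 10997 and 12926 in AAV-SIRT3. It fell by 0.23 (SE 0.0655, limma adjusted p = 0.0148) with overlap of the groups. Scn8a, the channel of axon initial segments and nodes of Ranvier, ran over 13915, 15323 and 17681 in intact, 12560, 14082 and 14695 in AAV-GFP and 12867, 13660 and 14994 in AAV-SIRT3. It fell by 0.16 (SE 0.0541, limma adjusted p = 0.0425), and the call was lost in 14 of 31 alternatives.

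Scn3a ran over 3667, 3919 and 4587 normalised reads in intact and over 3077, 3313 and 3958 in AAV-SIRT3, and the groups overlapped. It fell by 0.24 (SE 0.0853, limma adjusted p = 0.0458) and was lost in 15 of 31 alternatives. Scn1a did not pass: it ran over 16725, 18765 and 24606 in intact, 15037, 18322 and 20021 in AAV-GFP and 14624, 18583 and 18846 in AAV-SIRT3, with a log2 fold change of -0.16 (SE 0.0838, limma adjusted p = 0.172). The groups overlapped, and the means of Scn1a were 19622 ± 2788 in intact and 17480 ± 1903 in AAV-SIRT3 (SD, n = 6). Scn11a at -0.73 (limma adjusted p = 0.138) also missed the threshold.

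**Figure D3:**
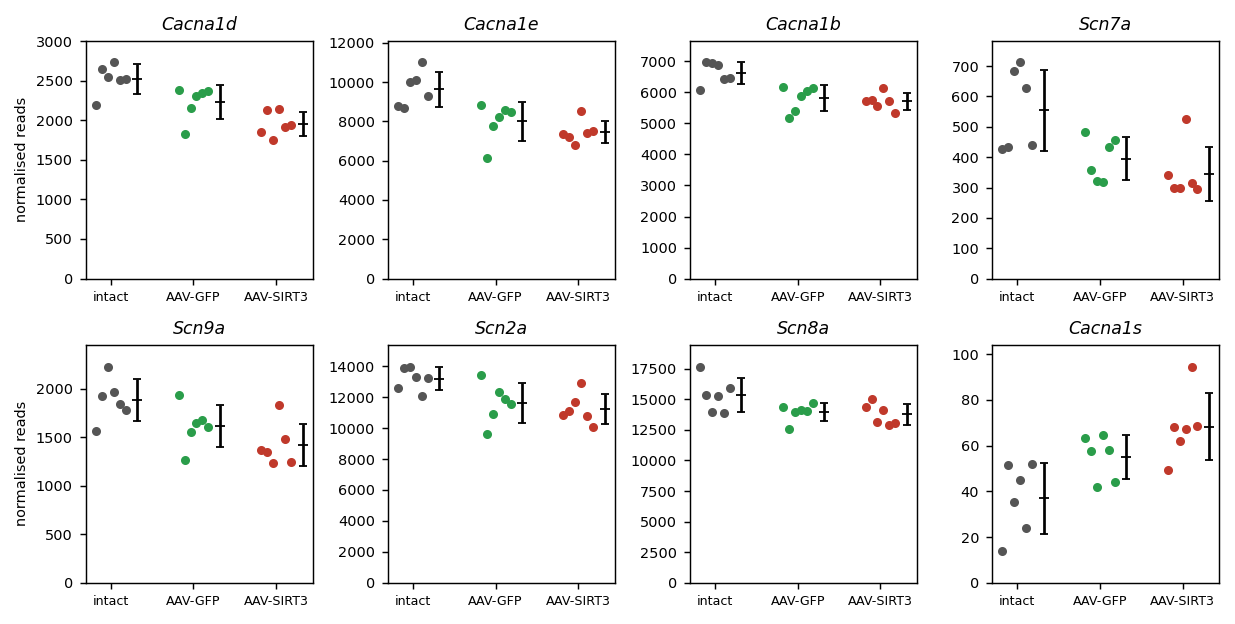
Normalised reads of 8 members in every library, grouped as intact, AAV-GFP and AAV-SIRT3, with the mean and SD of the 6 libraries beside each group and axes starting at 0. Cacna1d and Cacna1e show no overlap between AAV-SIRT3 and intact libraries, and AAV-SIRT3 replicate 4 is the highest AAV-SIRT3 point for Scn7a at 525.

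Among auxiliary genes of sodium channels, Scn2b at 0.08, Scn3b at 0.02 and Scn4b at 0.07 did not pass. Scn4b ran over 8077, 10002 and 14826 in intact, 9877, 10480 and 11145 in AAV-GFP and 10350, 10752 and 11933 in AAV-SIRT3, so that both AAV groups lay inside the intact range.

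Cacna2d1, an alpha2delta subunit that carries calcium channels to the membrane and binds gabapentin, fell. It ran over 7983, 9549 and 10240 normalised reads in intact, 7412, 8849 and 9771 in AAV-GFP and 7171, 8051 and 9236 in AAV-SIRT3. The fall was 0.21 (SE 0.0665, limma adjusted p = 0.0314), and the call was lost in 10 of 31 alternatives. The other alpha2delta genes gave -0.14 for Cacna2d2 (limma adjusted p = 0.0913), 0.10 for Cacna2d3 and 0.28 for Cacna2d4.

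No calcium channel beta or gamma gene passed. Cacnb3 and Cacng4 lay above the intact group in every AAV-SIRT3 library, a separation that 5.01% of all genes showed. Cacng4 ran from 3130 to 3438 in intact and from 3530 to 3700 in AAV-SIRT3 libraries, with a log2 fold change of 0.12 (limma adjusted p = 0.0618). Cacnb3, a beta subunit that binds the pore inside the cell, ran from 2778 to 3676 and from 3732 to 4046, with 0.16 (limma adjusted p = 0.126). Cacnb1, Cacnb2 and Cacnb4 lay between -0.04 and -0.01, and the gamma genes Cacng2, Cacng3, Cacng5, Cacng7 and Cacng8 between -0.08 and 0.19.

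**Figure D4:**
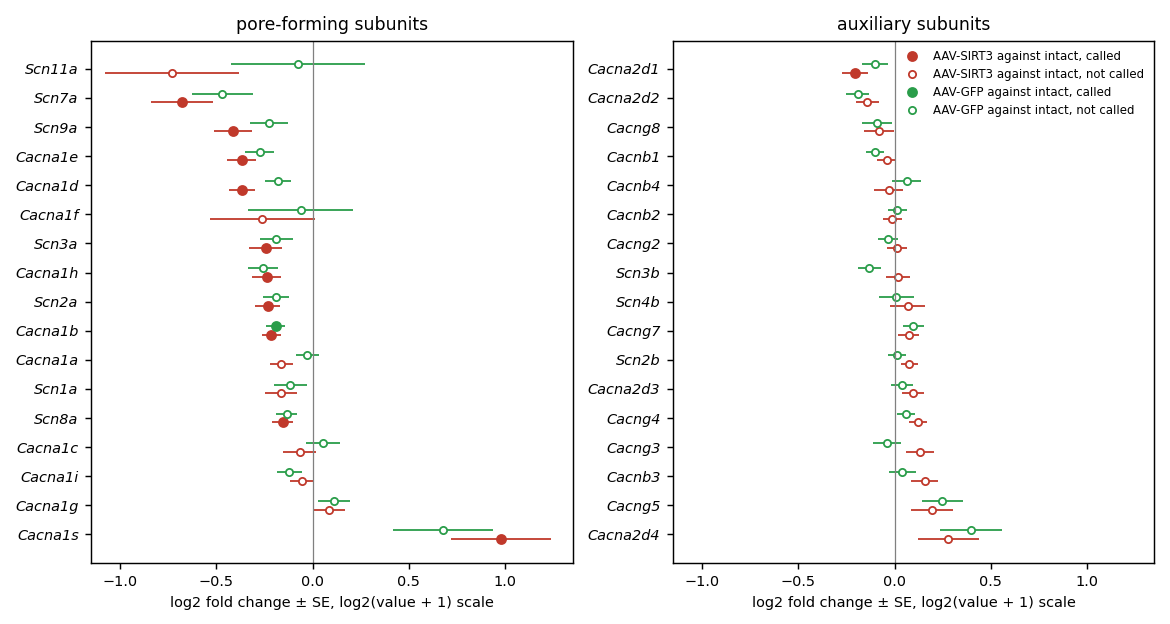
Log2 fold change with its standard error for 34 of the 36 tested members, pore-forming on the left and auxiliary on the right, for AAV-SIRT3 (red) and AAV-GFP (green) against the same intact libraries. Filled points passed an adjusted p of 0.05. In red, most pore-forming genes lie below 0, with Cacna1d and Cacna1e at -0.37, and most auxiliary genes lie above 0.

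The members lie in several clusters of neighbouring genes in GENCODE M21 (GRCm38). On chromosome 2, Scn3a (65457118 to 65567627, minus strand), Scn2a (65620771 to 65767447, plus), Scn1a (66270778 to 66440840, minus), Scn9a (66480080 to 66634962, minus) and Scn7a (66673425 to 66784914, minus) follow each other. In AAV-SIRT3 against intact 4 of these 5 fell, where 10.3% of all genes did, and Scn1a at -0.16 did not pass. Of these 5, only Scn7a and Scn9a stayed lower after the removal of length and GC trends given below. Other neighbouring members did not pass in that comparison. These were Cacna1c and Cacna2d4 on chromosome 6, Cacng7 and Cacng8 on chromosome 7, Scn2b and Scn4b on chromosome 9, and Cacng4 and Cacng5 on chromosome 11. Cacna2d3, beside Cacna1d on chromosome 14, did not pass either. Cacna1d lies on chromosome 14 from 30039939 to 30491455 (minus), Cacna1e on chromosome 1 from 154390731 to 154884501 (minus) and Cacna1b on chromosome 2 from 24603887 to 24763152 (minus). Cacna1d overlaps the coding genes Dcp1a and Chdh on the opposite strand, and whether the counting used strand is not given in the sources used here. Dcp1a fell in AAV-SIRT3 against intact as well, by 0.23 (limma adjusted p = 0.00534), while Chdh was at -0.02. How reads that fit more than 1 of these related channel genes were counted is not given either.

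RefSeq start windows (GRCm38.p6), each of 250 bases upstream of an annotated start, were found for 30 of the 40 members, 41 windows in all. The windows below belong to the chromosome 2 members Scn2a, Scn9a and Scn7a and to Cacna1b and Cacna1d, members that each fell in AAV-SIRT3 against intact. For Scn2a and Cacna1d 1 of 2 windows is shown, and the Cacna1d window precedes a start inside the annotated gene. Capitals mark matches to 3 promoter motifs, searched on both strands. The first motif is the GC box with the letters GGGCGG. The second is the TATA box, searched with the letters TATAAA. The third is the CCAAT box, named by its own letters. Each window is written 5′ to 3′ on the strand of its gene.
Scn2a, chr2:65620519-65620768, plus strand: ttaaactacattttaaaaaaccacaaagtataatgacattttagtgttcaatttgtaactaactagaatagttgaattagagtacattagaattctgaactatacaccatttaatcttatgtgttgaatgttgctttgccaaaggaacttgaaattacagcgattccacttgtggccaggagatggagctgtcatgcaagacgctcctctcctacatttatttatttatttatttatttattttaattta
Scn9a, chr2:66634963-66635212, minus strand: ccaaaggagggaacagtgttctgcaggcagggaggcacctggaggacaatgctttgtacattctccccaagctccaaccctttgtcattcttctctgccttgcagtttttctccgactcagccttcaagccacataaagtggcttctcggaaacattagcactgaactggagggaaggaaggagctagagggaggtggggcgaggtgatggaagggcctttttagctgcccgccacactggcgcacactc
Scn7a, chr2:66784911-66785160, minus strand: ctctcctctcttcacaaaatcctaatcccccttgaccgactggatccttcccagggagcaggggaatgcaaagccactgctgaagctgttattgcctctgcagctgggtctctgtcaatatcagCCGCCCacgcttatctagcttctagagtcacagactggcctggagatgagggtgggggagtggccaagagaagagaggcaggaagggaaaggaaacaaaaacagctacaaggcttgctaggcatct
Cacna1b, chr2:24763153-24763402, minus strand: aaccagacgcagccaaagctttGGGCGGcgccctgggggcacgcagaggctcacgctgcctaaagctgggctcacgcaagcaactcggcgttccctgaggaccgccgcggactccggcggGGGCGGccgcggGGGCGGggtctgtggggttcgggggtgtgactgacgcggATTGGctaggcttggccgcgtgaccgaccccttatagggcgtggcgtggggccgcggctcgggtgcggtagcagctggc
Cacna1d, chr14:30353487-30353736, minus strand: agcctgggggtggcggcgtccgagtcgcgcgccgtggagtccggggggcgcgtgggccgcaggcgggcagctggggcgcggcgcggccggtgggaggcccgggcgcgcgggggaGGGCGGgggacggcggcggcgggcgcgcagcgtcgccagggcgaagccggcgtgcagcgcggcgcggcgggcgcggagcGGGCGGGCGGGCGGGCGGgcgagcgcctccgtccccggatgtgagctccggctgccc

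The 5 windows shown are unlike each other in composition, and for Scn2a and Cacna1d this depends on which of 2 windows is taken. GC content was 29.6% for Scn2a, 54.4% for Scn9a, 53.2% for Scn7a, 72.0% for Cacna1b and 86.4% for Cacna1d, against a median of 52.4% over all 32851 windows of the table. CpG dinucleotides numbered 2, 5, 3, 29 and 50 in the same order, against a median of 6. Cacna1b held 3 GC boxes and 1 CCAAT box, Cacna1d held 5 GC boxes, Scn7a held 1, and the windows shown for Scn2a and Scn9a held no match to the 3 motifs. The Scn2a window not shown had a GC content of 53.2% and 1 TATA box. The Cacna1d window not shown had 39.6%, with 3 TATA boxes, 1 CCAAT box and no GC box. Among all windows 32.7% held a GC box, 12.4% a TATA box and 33.8% a CCAAT box, and among the members' 41 windows 15 held a GC box, 2 a TATA box and 10 a CCAAT box. Overlapping matches, on the same or opposite strands, were each counted, and the 5 GC boxes and 3 TATA boxes of the Cacna1d windows include such overlaps. A match is a run of letters and not a measured site.

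Pore-forming and auxiliary genes differ in transcript length, and length moved with the groups. The longest coding transcript of a pore-forming member had a median of 8.42 kb (5.90 to 14.9 kb), of an auxiliary member 3.70 kb (1.25 to 8.22 kb), and of all genes tested 2.82 kb. Across 19077 genes with a length, which are not independent replicates, the Spearman correlation of length with the log2 fold change was -0.19 between the AAV groups. Against intact it was -0.21 in AAV-GFP and -0.27 in AAV-SIRT3. Per library, the correlation of length with the level relative to the mean of all 18 libraries was 0.0955 to 0.207 in intact, -0.343 to 0.129 in AAV-GFP, where replicate 2 was lowest, and -0.343 to -0.0105 in AAV-SIRT3.

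Across the 36 tested members the same correlation was -0.63 for AAV-SIRT3 against intact. It was 0.13 among the 18 pore-forming and -0.38 among the 18 auxiliary genes. After trends with length and GC content were removed from each library, 3 pore-forming genes were lower than in intact: Cacna1d at -0.22 (limma adjusted p = 0.00472), Scn7a at -0.51 (0.021) and Scn9a at -0.22 (0.0409). Cacna1s stayed higher at 1.05 (limma adjusted p = 0.00649).

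The pore-forming median moved from -0.24 to -0.08 with this removal and the auxiliary median from 0.07 to 0.12. Of the auxiliary genes 5 then passed, all higher, among them Scn2b, Cacna2d3, Cacnb4 and Cacng4, and Cacna2d1 was at -0.04. Scn8a changed sign, from -0.16 to 0.02, and Cacna1e was at -0.14 (limma adjusted p = 0.0752). The removal also moved the genes called over the whole table from 2206 higher and 2008 lower to 3335 higher and 1069 lower. Over all genes with a length, the Spearman correlation of length with this difference was still -0.08 after the removal. Any further part of length in the members' differences was not tested.

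**Figure D5:**
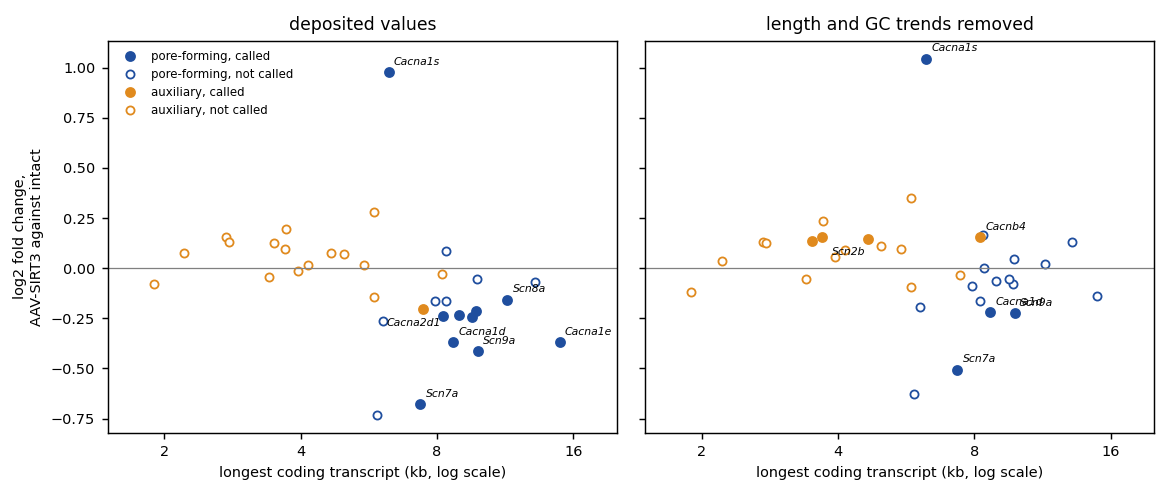
Log2 fold change of AAV-SIRT3 against intact for 34 of the 36 tested members, against the length of the longest coding transcript (log axis), from the deposited values on the left and after removal of length and GC trends on the right. Filled points passed an adjusted p of 0.05. The pore-forming genes called lower go from 9 on the left to 3 on the right, Cacna1d, Scn7a and Scn9a.

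Marker lists of cell types were read beside these results. Thalamus markers passed as higher against intact for 6 of 7 genes in AAV-SIRT3 and 2 of 7 in AAV-GFP. Over all genes 11.3% and 0.823% did so. The median log2 fold change of the 7 markers was nearly the same, 0.69 in AAV-SIRT3 and 0.72 in AAV-GFP. When the fit also held a thalamus marker score per library, the pore-forming genes past the threshold against intact were Cacna1b at -0.26, Cacna1c at -0.32, Cacna1d at -0.45 and Cacna1g at -0.21, and the auxiliary gene was Cacna2d1 at -0.29. Cacna1e at -0.30 (limma adjusted p = 0.0642), Scn9a at -0.42 (0.0541) and Scn7a at -0.53 (0.114) no longer passed. Cacna1g went from 0.08 to -0.21 and Cacna1s from 0.98 to 0.27 (limma adjusted p = 0.548), and 1274 genes passed in the whole table in place of 4214.

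Pan-neuronal markers summed to 437150 to 502893 normalised reads in intact, 442429 to 473172 in AAV-GFP and 453014 to 496148 in AAV-SIRT3, and 3 of 12 rose and 1 fell in AAV-SIRT3 against intact. The counts of this and the following lists stand beside 11.3% higher and 10.3% lower over all genes in AAV-SIRT3 against intact. Dopaminergic markers gave 0 of 13 in that comparison. In AAV-GFP against intact, where 1.02% of all genes passed as lower, 2 of 13 were lower, Ret and Slc6a3. Microglial markers rose in 4 of 8, endothelial markers fell in 2 of 4 and anterior pituitary markers in 4 of 6 tested in AAV-SIRT3 against intact. GABAergic markers gave 1 of 6 higher, astrocyte markers 1 of 7, oligodendrocyte markers 2 of 7, and oligodendrocyte precursor, choroid plexus and cortex and hippocampus markers 0. In AAV-GFP against intact, microglial markers rose in 3 of 8, pituitary markers fell in 4 of 6 tested and endothelial markers gave 0 of 4. There 0.823% of all genes passed as higher and 1.02% as lower. Summed pituitary markers ran from 740 to 5425 normalised reads in intact, 251 to 698 in AAV-GFP and 239 to 806 in AAV-SIRT3. No list held a marker at 0 in all 18 libraries. The part of endothelial, microglial or pituitary RNA in the members' values was not tested.

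Genes that work with the channels were read from 5 lists, whose counts stand beside 10.3% lower and 11.3% higher over all genes in AAV-SIRT3 against intact. The part of transcript length in the differences of these lists was not tested. Of 14 tested sodium channel partners and axon initial segment genes, 5 fell and 1 rose in AAV-SIRT3 against intact. Ank3, the ankyrin that anchors sodium channels at the initial segment, fell by 0.30 (SE 0.0717, limma adjusted p = 0.00618) and Ank2 by 0.23. Of 18 calcium channel partners and inhibitors 1 fell, the active zone gene Erc1 by 0.22.

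Of 8 calmodulin and calcium buffer genes 6 rose and 0 fell. Pvalb, a calcium buffer of fast-spiking neurons, rose by 0.43 (SE 0.0735, limma adjusted p = 0.000837), from 4356 ± 432 to 5882 ± 508 normalised reads (SD, n = 6), and Calm2, a calmodulin gene, rose by 0.22. Of 15 genes of calcium release, exchange and pumps 7 fell, with the ryanodine receptor gene Ryr2 down by 0.49 (SE 0.0644, limma adjusted p = 0.000213) and the plasma membrane pump gene Atp2b3 by 0.47.

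Of 9 related leak, pore-repeat and pacemaker channel genes 4 fell, among them the sodium leak channel gene Nalcn by 0.19 and its partner Unc79 by 0.19. In AAV-GFP against intact, where 1.02% of all genes passed as lower, 3 of these 5 lists' genes fell. All 3 were in the release, exchange and pump list, with Atp2b4 at -0.41 and Ryr2 at -0.35. In AAV-SIRT3 against AAV-GFP 0 passed in any of the 5 lists.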

How the data were processed

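Poly-A libraries of 18 mouse substantia nigra samples (stranded kit, paired reads of 100 bp, per the labels' protocols) were mapped with HISAT2 2.1.0 to mm10 and normalised with DESeq2 1.34.0, per the submitters' processing notes. The annotation, strand setting and read filters are not given in the sources used here. Each deposited value is a signal, the read count of a gene over the size factor of its library. Multiplied back, 100% of the values came out whole within 0.001 read. In replicate 4 of the intact and of the AAV-SIRT3 group the factors were 1.00 and 1.01, so their steps show whole reads less firmly, and edgeR was also run without both, an alternative chosen after seeing the data. One row that names no gene (at most 0.00029% of values) was left out.

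Values were taken as log2(value + 1), a scale that understates changes of low genes. The main test was limma 3.58.1 (R 4.3.3) with a trend in the prior variance, 1 model of all 18 libraries (15 residual degrees of freedom). Adjustment by Benjamini-Hochberg covered 19442 genes that reached 10 in 6 or more libraries, at 0.05. Count tests of the recovered reads with edgeR 4.0.16 and with DESeq2 1.42.0 were alternatives. With edgeR 352 genes passed in AAV-GFP against intact, where limma gave 358. Further settings were pseudocounts of 0.5 and 10, TMM scaling, quantile normalisation, other filters, fits of only the 2 groups compared, a replicate block, length and GC trend removal, a thalamus score as covariate, and leaving out each library. Replicates differed beyond sampling noise (chi-square per degree of freedom 8.27 to 36.6). The procedure was tested on simulated counts.

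Groups and replicate numbers came from the sample titles. Transcript lengths and positions came from GENCODE M21 by symbol, for all 40 members. Members were accounted for by name, except items that are not reported here and are left out of the plots but stay in the counts and medians. Values by library (here lowest, median and highest) were fixed for members past the threshold in AAV-SIRT3 against AAV-GFP or AAV-GFP against intact, the 5 smallest p-values of AAV-SIRT3 against intact, and 10 channels of known roles in any case. At most 2 genes per list and direction were named. Members and lists were chosen with earlier results of these data known.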

Additional observations from a re-analysis of the deposited data

Results flagged for a closer look

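In 6 of 108 groups of 6 values (36 members in 3 groups) 1 library stood apart from the others by more than the 95% critical value of Dixon's gap ratio, where chance gives 5.4. Cacnb2 was lowest in AAV-SIRT3 replicate 6 at 3483 normalised reads, with the next library at 3900. Cacnb3 was lowest in intact replicate 1 at 2778 (next 3509) and highest in AAV-GFP replicate 6 at 4499 (next 3620). Scn4b was highest in AAV-SIRT3 replicate 3 at 11933 (next 10922). Scn7a was highest in AAV-SIRT3 replicate 4 at 525 (next 341), and without that library its difference from intact was -0.81. Scn8a was lowest in AAV-GFP replicate 2 at 12560 (next 13948), the library with the lowest correlation of level with transcript length among AAV-GFP.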

How the results depend on the processing

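Cacna1d was past the threshold against intact in AAV-SIRT3 in all 31 alternatives, and Cacna1b, Scn7a, Scn9a and Cacna1s in 30. Pore-forming genes called in AAV-SIRT3 against intact numbered 10, but 4 after length and GC removal and 4 with the thalamus covariate, and 7 to 12 when 1 library was left out. Auxiliary genes called numbered 2, but 5 after length and GC removal, 1 with no filter and 1 with the thalamus covariate (1 to 3 without 1 library). All genes called numbered 4214, but 1274 with the thalamus covariate (3279 to 4633 without 1 library). In AAV-GFP against intact, 1 pore-forming gene became 4 with DESeq2 and 0 with length removal, no filter, only the 2 groups, the thalamus covariate or edgeR without intact replicate 4 and AAV-SIRT3 replicate 4, and 0 to 3 when 1 library was left out. Auxiliary genes became 1 with DESeq2, and all genes went from 358 to 979 (DESeq2), 120 (edgeR without the 2 libraries), 164 (no filter), 199 (2 groups), 18 (thalamus covariate) and 129 to 686 (without 1 library, lowest without intact replicate 3 and highest without AAV-GFP replicate 1). In AAV-SIRT3 against AAV-GFP, all genes called went from 22 to 308 (DESeq2), 10 (edgeR without the 2 libraries), 246 (length removal), 8 (2 groups) and 5 to 861 (without 1 library, lowest without AAV-SIRT3 replicate 5), and pore-forming genes from 0 to 1 at most. Apart from the construction of each alternative, the cause was not tested.

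Signs changed for small differences. After length removal AAV-SIRT3 against AAV-GFP gave 0.0307 for Cacna1b, 0.0329 for Scn1a, 0.0384 for Scn2a, 0.0354 for Scn3a and 0.0507 for Scn8a, AAV-GFP against intact gave 0.0252 for Cacna1a, and AAV-SIRT3 against intact gave 0.13 for Cacna1c and 0.0200 for Scn8a. With the thalamus covariate AAV-GFP against intact gave -0.19 for Cacna1c, -0.17 for Cacna1g and -0.00813 for Cacna1s, and AAV-SIRT3 against intact gave -0.21 for Cacna1g. Scn4b in AAV-GFP against intact was -0.0184 with DESeq2, -0.0184 with edgeR and -0.0226 with edgeR without the 2 libraries, which also gave -0.0140 for Cacna1h in AAV-SIRT3 against AAV-GFP. With 1 library left out, AAV-SIRT3 against AAV-GFP ran from -0.0195 to 0.0584 for Cacna1h and from -0.10 to 0.00271 for Scn1a. AAV-GFP against intact ran from -0.0552 to 0.00116 for Cacna1a, from -0.0126 to 0.10 for Cacna1c and from -0.0637 to 0.11 for Scn4b, and AAV-SIRT3 against intact from -0.00263 to 0.17 for Scn4b.

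Replicate numbers were shared by the groups, but libraries with the same number did not deviate together (18 pairs, correlations -0.10 to 0.18, 1 library closest to its own number), so the numbers are not known to pair the mice. With the replicate number as a block, AAV-SIRT3 against AAV-GFP gave 13 genes and no member, AAV-GFP against intact 372 genes with Cacna1e called in place of Cacna1b, and AAV-SIRT3 against intact 3923 genes, 10 pore-forming and 3 auxiliary. Counts of few reads limit Cacna1s, Cacna1f and Scn11a.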
